A study of Homo sapiens with 2 samples.

Results

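Metallothioneins are short proteins, rich in cysteine, that bind zinc, copper and cadmium. The genes considered here were 6 metallothioneins (MT1E, MT1F, MT1G, MT1M, MT1X and MT2A), MTF1 and SLC30A1. They were chosen by function, as a metal-binding family with its activator and a zinc exporter, and found by symbol in a table of 19362 genes. Values were had for 7 of the 8 genes, and MT1M was not analysed here. The 2 libraries were of FTC-133, an established human line from a follicular thyroid carcinoma. One came from FTC-133 cells that received siRNA against CHI3L1, the gene of the secreted glycoprotein YKL-40, and the other from FTC-133 cells that received a control siRNA. Both groups share the transfection, and the sources used here do not give the siRNA sequences, the time after transfection or any pooling of cultures.

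With 1 library per group there is no replicate check, and each difference is one between these libraries. Values are CPM as deposited, which are read counts scaled by 1 constant per library. They come from 19467345 reads in genes in the CHI3L1 siRNA library and 15837449 in the control siRNA library. The CPM sum to 998507 in the CHI3L1 siRNA library and 1.0015e+06 in the control siRNA library, so the constants do not reflect these reads alone. Fold is given as log2 of CHI3L1 siRNA over control siRNA with 1 CPM added to each, which understates differences of low genes. Ratios of CPM carry no added value and have 95% exact intervals that cover counting error only. A gene counts as higher or lower at 1.5-fold by the log2 fold, if its mean over both libraries is at least 1 CPM, and genes past this filter are called tested below although no significance test was possible. In bulk RNA, fewer cells with a transcript and fewer copies per cell cannot be told apart. CHI3L1 itself stood at 48.6 CPM in the CHI3L1 siRNA library and 140 CPM in the control siRNA library (ratio 0.347, 0.321 to 0.374). The thyroid transcription factors PAX8 and NKX2-1 stood at 71.2 and 112 CPM in the CHI3L1 siRNA library, and at 82.8 and 88.6 CPM in the control siRNA library. FOXE1, another thyroid transcription factor, had 19 reads in the CHI3L1 siRNA library and 1 in the control siRNA library (ratio 15.4, 2.45 to 640.3), with a mean below 1 CPM. It is named after its values were seen. TG, the thyroglobulin gene, had 14 reads in the CHI3L1 siRNA library and 10 in the control siRNA library. Summed fibroblast markers stood at 49.7 CPM in the CHI3L1 siRNA library and 60.7 CPM in the control siRNA library, with LUM as the main one. Endothelial and immune markers summed to 9.75 and 0.616 CPM in the CHI3L1 siRNA library, and to 11.3 and 1.20 CPM in the control siRNA library. Of the markers with a mean of at least 1 CPM, EPCAM was higher (log2 fold 0.73) and PECAM1 lower (−0.80). Both calls were lost with 10 CPM added, at 2-fold and by counting intervals wholly beyond 1.5-fold. The log2 folds within 1.5-fold included 0.54 for KDR, 0.24 for VWF, −0.36 for LUM, 0.18 for DCN, 0.13 for PDGFRB, −0.34 for KRT18, 0.32 for CDH1 and 0.07 for TSHR. Values were had for 4 of 4 fibroblast, 3 of 4 endothelial and 2 of 4 immune markers, none of them at 0 in both libraries, and their part in the results was not tested.

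In the cell, free zinc activates MTF1, a zinc finger transcription factor that binds metal response elements in promoters. Its known targets include the metallothionein genes, whose products store zinc, and SLC30A1, a transporter of the plasma membrane that moves zinc out of the cell. Metallothioneins are also induced by glucocorticoids and oxidants, and MT1G has been described as silenced by promoter methylation in thyroid carcinomas.

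The metallothionein members lie in one cluster on chromosome 16 (GRCh38, GENCODE release 29). MT2A (ENSG00000125148) spans chr16:56608199-56609497, MT1E (ENSG00000169715) chr16:56625475-56627112, MT1F (ENSG00000198417) chr16:56657694-56660698 and MT1X (ENSG00000187193) chr16:56682424-56684196, all on the plus strand. MT1G (ENSG00000125144) spans chr16:56666731-56668065 on the minus strand. Each has 3 exons in its annotated transcript and a coding sequence of 183 bases without the stop codon, or 61 codons. Of these codons, 20 encode cysteine in each of the 6 genes. Coding sequences are shown for the 4 members that passed the filter on the mean, since their likeness bears on how reads are assigned. Capitals in MT1E, MT1X and MT1F mark bases that differ from MT2A at the same position.
MT2A: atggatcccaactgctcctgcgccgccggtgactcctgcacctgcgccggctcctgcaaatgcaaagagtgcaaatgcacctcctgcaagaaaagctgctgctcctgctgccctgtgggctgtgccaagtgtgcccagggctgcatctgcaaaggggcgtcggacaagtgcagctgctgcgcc
MT1E: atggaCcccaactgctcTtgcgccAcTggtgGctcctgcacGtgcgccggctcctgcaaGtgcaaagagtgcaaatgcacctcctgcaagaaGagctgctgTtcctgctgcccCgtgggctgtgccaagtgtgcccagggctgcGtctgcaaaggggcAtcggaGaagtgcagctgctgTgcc
MT1X: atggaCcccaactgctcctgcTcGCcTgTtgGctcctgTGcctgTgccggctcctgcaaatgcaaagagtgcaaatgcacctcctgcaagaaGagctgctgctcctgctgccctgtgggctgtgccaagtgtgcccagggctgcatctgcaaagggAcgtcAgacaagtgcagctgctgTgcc
MT1F: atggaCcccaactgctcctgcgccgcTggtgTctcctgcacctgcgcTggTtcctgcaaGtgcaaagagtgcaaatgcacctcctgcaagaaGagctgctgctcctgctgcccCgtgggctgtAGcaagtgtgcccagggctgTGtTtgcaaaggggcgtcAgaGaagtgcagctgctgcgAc

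MT1E and MT1X each differed from MT2A at 14 of 183 positions and MT1F at 16. Over all 15 pairs of the 6 members, identity of the coding sequences ran between 88.5% (MT1F and MT1X) and 95.1% (MT1G and MT2A). Likeness was less along whole transcripts. In runs of 75 bases, 0% of MT2A and 0% of MT1F matched a transcript of another annotated gene exactly, as did 0.794% of MT1E, 6.63% of MT1G and 31.6% of MT1X. Most of the MT1X share (24.5% of runs) lay in AC026461.1, an overlapping gene on the same strand that was not analysed here. In runs of 50 bases the shares were 4.88% for MT2A, 5.34% for MT1E, 3.59% for MT1F, 20.2% for MT1G and 45.1% for MT1X. The sources used here give neither the read length, nor the handling of reads with several hits, nor the strand setting, so the counts of MT1X and MT1G are uncertain. The exons of the 7 genes overlap no exon of any other gene measured.

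Promoter sequences from RefSeq (GRCh38.p14, 250 bases before to 50 after the start) were at hand for 4 of the 8 genes, MT2A, MT1X, SLC30A1 and MTF1. They are shown for the 3 known targets of MTF1, whose levels were close in both libraries. Capitals mark matches, on either strand, to the core of the metal response element, spelled TGCACNC or TGCGCNC. The regions are chr16:56608334-56608633 (plus strand) for MT2A, chr16:56682220-56682519 (plus strand) for MT1X and chr1:211579112-211579411 (minus strand) for SLC30A1.
MT2A: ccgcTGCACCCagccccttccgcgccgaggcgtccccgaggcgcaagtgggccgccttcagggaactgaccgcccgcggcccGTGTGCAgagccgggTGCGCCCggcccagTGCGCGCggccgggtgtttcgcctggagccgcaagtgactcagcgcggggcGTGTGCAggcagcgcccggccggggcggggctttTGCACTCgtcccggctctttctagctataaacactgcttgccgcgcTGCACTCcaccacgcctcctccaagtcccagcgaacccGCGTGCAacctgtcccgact
MT1X: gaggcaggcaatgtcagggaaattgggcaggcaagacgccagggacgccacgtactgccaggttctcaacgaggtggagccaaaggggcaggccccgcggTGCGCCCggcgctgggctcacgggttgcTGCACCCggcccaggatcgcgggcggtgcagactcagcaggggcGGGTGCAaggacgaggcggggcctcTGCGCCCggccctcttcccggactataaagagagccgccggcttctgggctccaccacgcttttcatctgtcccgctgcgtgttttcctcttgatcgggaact
SLC30A1: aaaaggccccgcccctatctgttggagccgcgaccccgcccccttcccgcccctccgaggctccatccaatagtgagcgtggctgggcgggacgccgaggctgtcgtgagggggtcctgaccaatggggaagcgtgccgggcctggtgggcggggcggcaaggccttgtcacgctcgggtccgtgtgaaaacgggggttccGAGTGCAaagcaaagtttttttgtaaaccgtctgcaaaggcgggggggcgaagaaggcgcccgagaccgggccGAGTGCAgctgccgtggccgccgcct

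The MT2A promoter held 8 matches, MT1X 4, SLC30A1 2 and MTF1 0, with no overlaps between matches. Of 35116 promoters of 300 bases, 29.6% held at least 1 match, 8.60% at least 2, 0.601% at least 4 and 0.0199% at least 8. A match is a description of these letters, and binding was not measured.

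MT2A, the main metallothionein of most human tissues, was the most abundant of the genes and nearly level between the libraries. It stood at 224 CPM (4375 reads) in the CHI3L1 siRNA library and 235 CPM (3721 reads) in the control siRNA library. The ratio was 0.954 (0.913 to 0.997) and the log2 fold −0.07. MT1X, a type 1 isoform, stood at 12.2 CPM (237 reads) in the CHI3L1 siRNA library and 11.1 CPM (175 reads) in the control siRNA library. The MT1X ratio of 1.10 had an interval that held 1 (0.900 to 1.34), and its log2 fold was 0.12. MT1F was scarce, with 2.46 CPM (48 reads) in the CHI3L1 siRNA library and 2.09 CPM (33 reads) in the control siRNA library. For this gene the ratio of 1.18 also had an interval that held 1 (0.742 to 1.897).

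MT1E was the metallothionein member with the lowest log2 fold among the 4 past the filter on the mean. It stood at 94.2 CPM (1837 reads) in the CHI3L1 siRNA library and 138 CPM (2180 reads) in the control siRNA library. The ratio was 0.683 (0.642 to 0.728), so that its counting interval held no value near 1, and the log2 fold of −0.54 did not pass 1.5-fold. MT1G was near the limit of detection, with 4 reads in the CHI3L1 siRNA library and 8 in the control siRNA library, and its ratio of 0.406 had an interval of 0.0894 to 1.51. A count of 0 would allow up to 3 reads, or 0.154 CPM in the CHI3L1 siRNA library and 0.190 CPM in the control siRNA library.

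Among the regulators, MTF1 (ENSG00000188786, chr1:37809567-37859620, minus strand) was higher. It stood at 26.8 CPM (522 reads) in the CHI3L1 siRNA library and 16.6 CPM (262 reads) in the control siRNA library. The ratio was 1.62 (1.39 to 1.88) and the log2 fold 0.66. SLC30A1 (ENSG00000170385, chr1:211571568-211578742, minus strand) stood at 38.2 CPM (744 reads) in the CHI3L1 siRNA library and 36.0 CPM (569 reads) in the control siRNA library. The SLC30A1 ratio was 1.06 (0.9496 to 1.18), with a log2 fold of 0.08 that became −0.02 when values were centred on abundant genes. The interval of MTF1 reached below 1.5-fold, and its log2 fold was inside 1.5-fold when values were centred in that way (0.56), with 10 CPM added in place of 1 (0.47) and after the correction for length and GC content described below (0.23).

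**Figure D1:**
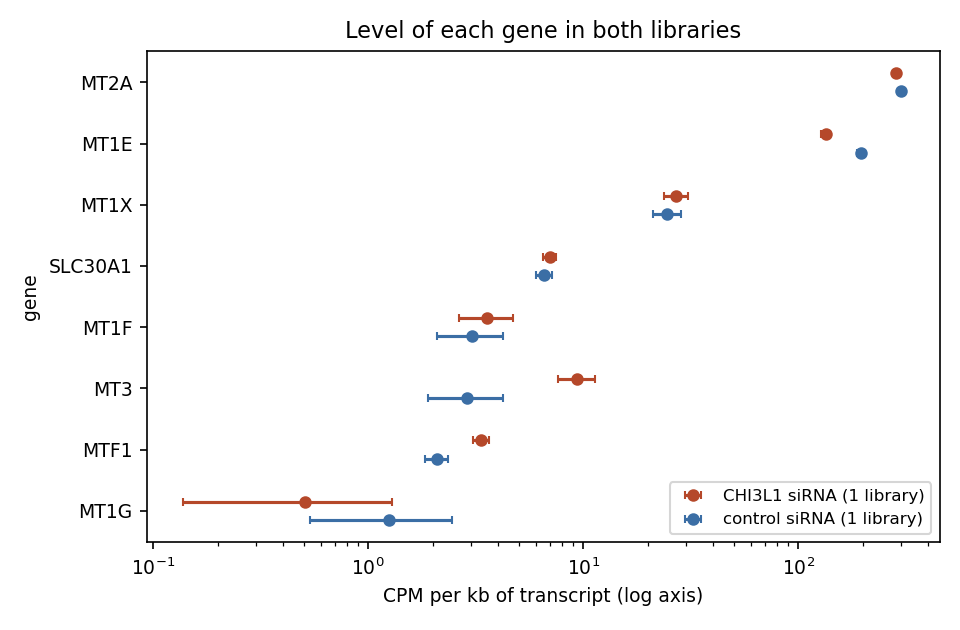
Level of the 7 genes and of MT3 in CPM per kb of annotated transcript (log axis), with the CHI3L1 siRNA library above the control siRNA library for each gene. Points are single libraries and bars are 95% exact Poisson intervals of the reads, which cover counting error only. MT2A and MT1E lie above 100 CPM per kb in both libraries, and MT3 and MTF1 are the genes whose CHI3L1 siRNA point lies clearly to the right of its control siRNA point.

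Per length, the order of the 7 genes was the same in both libraries. In CPM per kb, the levels in the CHI3L1 siRNA library were 285 for MT2A, 134 for MT1E, 27.0 for MT1X, 6.97 for SLC30A1, 3.57 for MT1F, 3.36 for MTF1 and 0.505 for MT1G. The levels in the control siRNA library were 299 for MT2A, 196 for MT1E, 24.6 for MT1X, 6.57 for SLC30A1, 3.02 for MT1F, 2.08 for MTF1 and 1.25 for MT1G. The counting intervals of MT1F and MTF1 overlapped in both libraries, and those of MTF1 and MT1G overlapped in the control siRNA library. Neighbours higher in the order were apart in both. These levels rest on annotated lengths of 786 nt for MT2A, 704 nt for MT1E and 450 nt for MT1X. RefSeq places the MT2A start downstream of the GENCODE one, which would shorten that transcript. It places the SLC30A1 start upstream of the GENCODE one, and the SLC30A1 promoter region shown lies wholly outside the GENCODE span of that gene.

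Of the 6 tested genes, which passed the filter on the mean, 1 was higher by 1.5-fold (MTF1) and 0 were lower. Over all 14815 tested genes, 7.73% were higher and 13.4% lower. With values centred on genes of at least 50 CPM, 715 tested genes (4.83%) were higher and 2503 (16.9%) lower, against 1145 and 1988 as deposited, and of the 6 genes 0 were higher and 1 was lower (MT1E, log2 fold −0.64). The 4 metallothionein members past the filter on the mean had a median log2 fold of 0.03, against 0.01 for all tested genes. A single gene past 1.5-fold out of 6 does not set the group apart from that background.

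Together, the 5 tested metallothioneins (the 4 members and MT3) summed to 339 CPM (6601 reads) in the CHI3L1 siRNA library and 388 CPM (6135 reads) in the control siRNA library. The ratio of the sums was 0.873 (0.843 to 0.904). The sum leaves out MT1G and MT1M and the pseudogenes that share runs with these transcripts, so reads assigned to those genes are not in it. Without MT1E the sums were 244 CPM in the CHI3L1 siRNA library and 250 CPM in the control siRNA library (ratio 0.977, 0.936 to 1.02), so the difference in the sum lay with MT1E.

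The makeup of the family differed between the libraries beyond counting error. MT2A made up 66.2% (65.1 to 67.4) of the reads of 6 metallothioneins in the CHI3L1 siRNA library and 60.6% (59.3 to 61.8) in the control siRNA library. MT1E made up 27.8% (26.7 to 28.9) in the CHI3L1 siRNA library and 35.5% (34.3 to 36.7) in the control siRNA library. The MT2A to MT1E ratio of reads was 2.38 in the CHI3L1 siRNA library and 1.71 in the control siRNA library, a ratio of ratios of 1.40 (exact interval 1.29 to 1.51). MT1X and MT1F also stood higher against MT1E, by ratios of ratios of 1.61 (1.30 to 1.98) and 1.73 (1.08 to 2.79). The ratios against MT1E all share its reads, MT1E being the tested member with the lowest log2 fold, and are not separate results. MT2A against MT1X gave 0.868 with an interval that held 1 (0.706 to 1.07), and the MT1X counts are uncertain as said above. These ratios within the family do not depend on how the libraries were scaled.

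**Figure D2:**
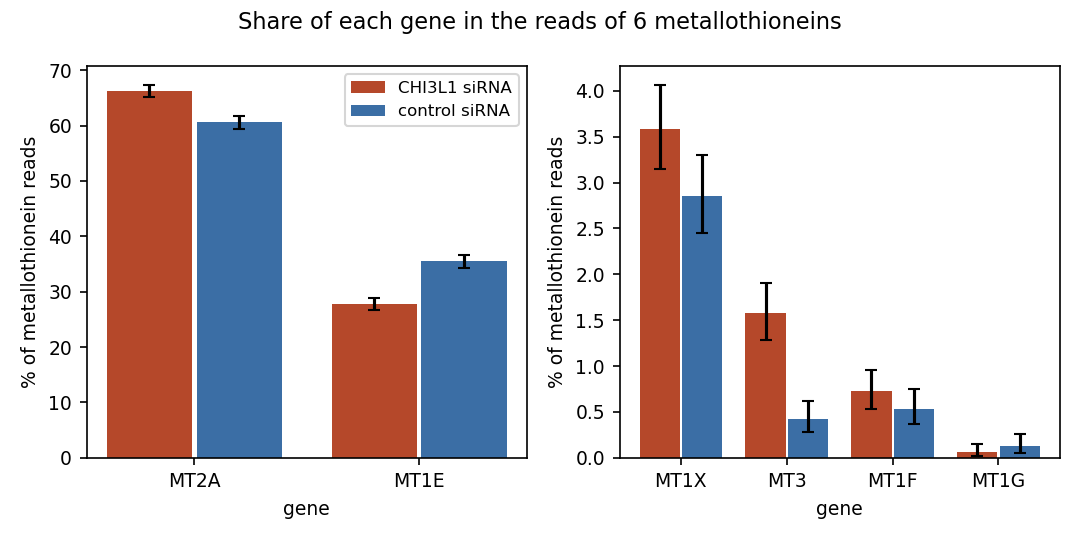
Share of each gene in the reads of the 6 metallothioneins with values (%), with the CHI3L1 siRNA library left of the control siRNA library and the scarcer genes on their own axis. Bars start at 0 and error bars are 95% exact binomial intervals. MT1E has 27.8% in the CHI3L1 siRNA library and 35.5% in the control siRNA library, and MT3 has 1.57% under CHI3L1 siRNA and 0.423% under control siRNA.

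MT3, a metallothionein best known from the brain and named growth inhibitory factor there, was not among the 8 genes but shares their locus. It stood at 5.33 CPM (104 reads) in the CHI3L1 siRNA library and 1.64 CPM (26 reads) in the control siRNA library. The ratio was 3.24 (2.09 to 5.20) and the log2 fold 1.26. Its coding sequence was 73.0% to 76.0% identical to those of the 6 members, and 0% of its runs of 50 bases matched another annotated gene. MT1L, a transcribed pseudogene of the cluster, had 24 reads in the CHI3L1 siRNA library and 11 in the control siRNA library, a ratio of 1.77 with an interval that held 1 (0.835 to 4.002). Of 11 metallothionein genes in the family list, 6 had values and 5 passed the filter on the mean, with 1 higher (MT3) and 0 lower. Over all tested genes, 7.73% were higher and 13.4% lower.

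Folds followed transcript length across the table, which touches every value of these short transcripts. Among 599 tested coding genes with transcripts of at most 1000 nt, 2.17% were higher and 52.1% lower by 1.5-fold, with a median log2 fold of −0.62. The 410 of them with at least 50% GC, as all metallothioneins with values have, had a median of −0.51. Among the 598 other genes of the short class, 272 had a higher log2 fold than MT1E, 91 a higher one than MT2A, 49 than MT1X and 42 than MT1F. For MT3 the number was 0 of 598. MTF1 and SLC30A1 have transcripts of 7972 and 5474 nt. In their class, above 4000 nt, the median log2 fold was 0.25, and of 4626 others 452 had a higher log2 fold than MTF1 and 3109 a higher one than SLC30A1.

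**Figure D3:**
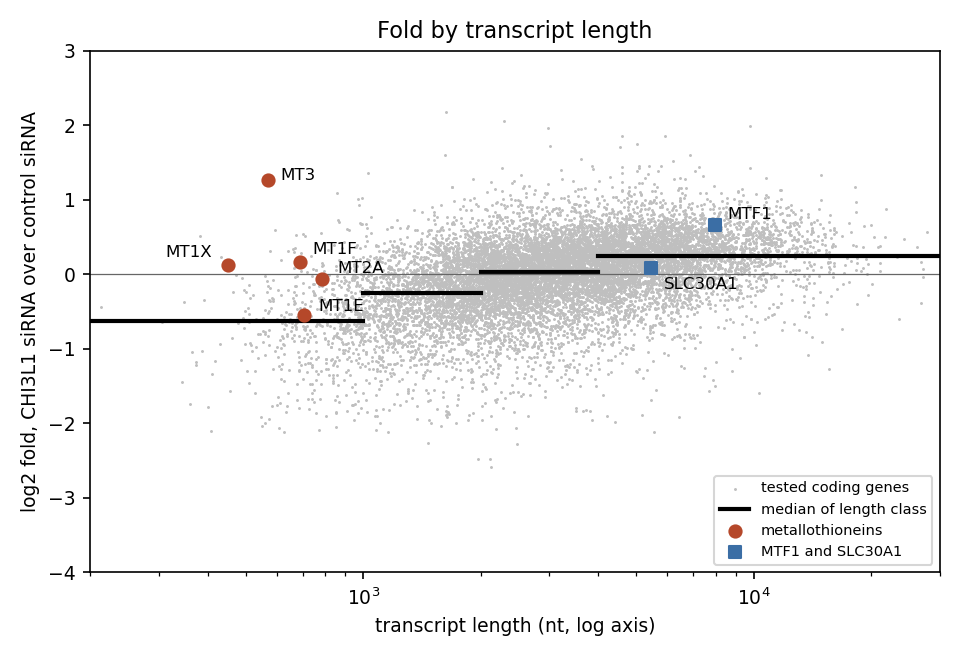
Log2 fold (CHI3L1 siRNA over control siRNA, 1 CPM added) against transcript length in nt (log axis) for all tested coding genes in grey, with the median of each length class as a black line. Large circles are metallothioneins and squares are MTF1 and SLC30A1. MT1E lies near the median of −0.62 of the short class, and MT2A, MT1X, MT1F and MT3 lie above it.

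With a smooth trend in transcript length, coding length and GC content subtracted, the log2 folds were 0.30 for MT1E, 0.76 for MT2A, 1.01 for MT1F, 1.04 for MT1X and 2.16 for MT3. MT1E and MT2A therefore changed sign, and 3 of the 6 tested members, all metallothioneins, passed 1.5-fold upward. Under the same correction, 6.1% of 12664 coding genes were higher and 7.2% lower. MTF1 had 0.23, short of 1.5-fold, and SLC30A1 0.15. The trend took up 36.4% of the variance of folds in the genes it was fitted to. It has little support at such short coding sequences. Only 30 tested coding genes are no longer than 183 bases there, and these include the tested metallothionein members, which were left out of the fit. Whether the trend with length arose in the cells or in the preparation of the libraries was not tested.

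**Figure D4:**
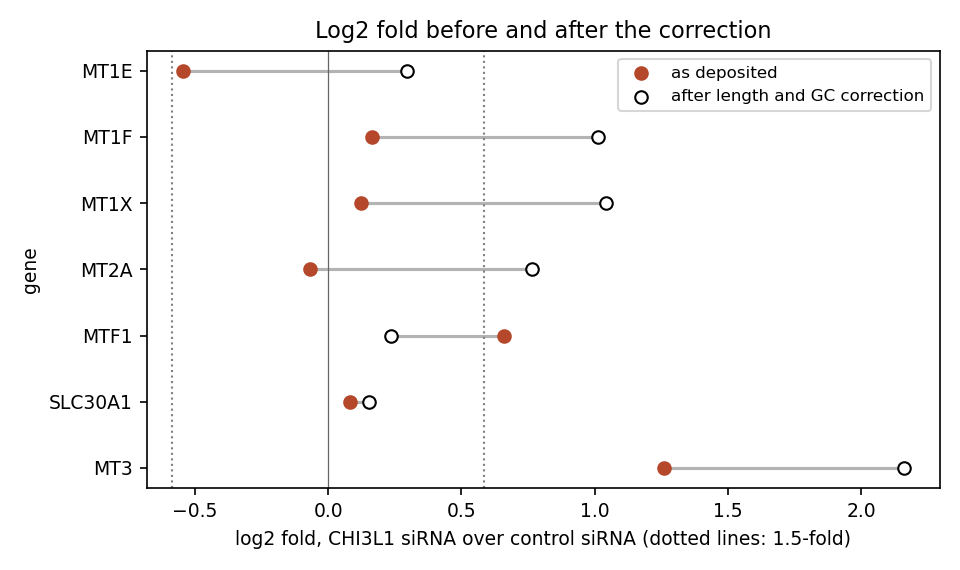
Log2 fold (CHI3L1 siRNA over control siRNA) as deposited, filled, and after the length and GC correction, open, for the 6 tested genes and MT3. Dotted lines mark 1.5-fold. The open points of the 5 metallothioneins lie to the right of the filled ones, and that of MTF1 lies to the left.

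Zinc importers of the SLC39A family, which bring zinc into the cytosol, included 1 gene past 1.5-fold in each direction. Of 14 listed, 13 had values and 11 were tested, with 1 higher, 1 lower and 9 within 1.5-fold (median log2 fold 0.04). These counts are near the background of 7.73% higher and 13.4% lower and say nothing particular of the importers. SLC39A14, which also carries iron and manganese, stood at 156 CPM in the CHI3L1 siRNA library and 97.3 CPM in the control siRNA library, a ratio of 1.60 (1.51 to 1.70). SLC39A10 stood at 64.4 CPM in the CHI3L1 siRNA library and 105 CPM in the control siRNA library, a ratio of 0.615 (0.571 to 0.662). In mouse cells this gene is known to be repressed by MTF1, but a link between these genes was not tested here. SLC39A4, the intestinal importer, had 17.7 CPM in the CHI3L1 siRNA library and 25.9 CPM in the control siRNA library, a log2 fold of −0.52, and SLC39A1 had a log2 fold of 0.04. After the length and GC correction the log2 folds were 0.40 for SLC39A14, inside 1.5-fold, and −0.63 for SLC39A10.

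Transporters of the SLC30A family, most of which move zinc out of the cytosol, stayed within 1.5-fold in 6 of 6 tested genes (median log2 fold −0.01). Over all tested genes 7.73% were higher and 13.4% lower, so this count does not set the family apart. SLC30A4 had 14.1 CPM in the CHI3L1 siRNA library and 19.1 CPM in the control siRNA library, a log2 fold of −0.41. SLC30A7, of the Golgi, had 36.5 CPM under CHI3L1 siRNA and 30.04 CPM under control siRNA, a log2 fold of 0.27. SLC30A9 had 93.9 CPM under CHI3L1 siRNA and 107 CPM under control siRNA, a log2 fold of −0.19. SLC30A5 and SLC30A6, which work as a pair in the secretory pathway, had log2 folds of −0.11 and 0.09.

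**Figure D5:**
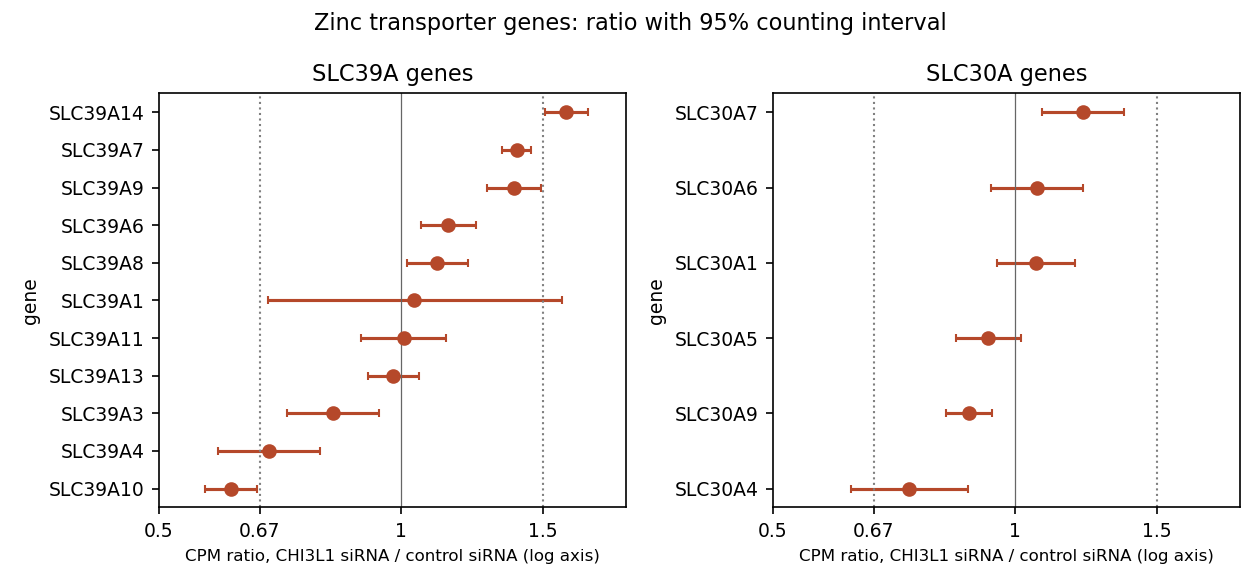
Ratio of CPM, CHI3L1 siRNA over control siRNA (log axis), for tested zinc importers (left panel) and SLC30A transporters (right panel), with 95% exact counting intervals. Dotted lines mark 1.5-fold in either direction. SLC39A14 (1.60) and SLC39A10 (0.615) are past the lines, and the 6 SLC30A genes are inside them.

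Other genes of metal handling were mixed. Of 8 tested genes reported as targets or partners of MTF1, 0 passed 1.5-fold (median log2 fold 0.22). Over all tested genes 7.73% were higher and 13.4% lower, so this count does not set the list apart. With 0.5 CPM added in place of 1, 1 of the 8 was higher. SLC40A1, the iron exporter ferroportin, had 43 reads in the CHI3L1 siRNA library and 19 in the control siRNA library (ratio 1.84, 1.05 to 3.34). GCLC, a subunit of the enzyme that starts glutathione synthesis, had a log2 fold of 0.52, and the coactivator EP300 one of 0.48. Of 11 tested genes of copper handling, 1 was higher and 1 lower (median 0.22), which is near those shares over all tested genes. After the length and GC correction 4 of the 11 were higher and 0 lower, against 6.1% and 7.2% of coding genes. They were STEAP3 (log2 fold 0.89), ATOX1 (0.85), SLC31A2 (0.65) and STEAP2 (0.61). ATOX1, with a transcript of 488 nt, had −0.04 as deposited. SLC31A2 had 32 reads in the CHI3L1 siRNA library and 18 in the control siRNA library (ratio interval 0.785 to 2.73). The count thus depends on the correction and is not a result about copper handling. STEAP3, a metalloreductase, stood at 229 CPM in the CHI3L1 siRNA library and 103 CPM in the control siRNA library (ratio 2.22, 2.10 to 2.35). COX17, a copper chaperone for cytochrome c oxidase with a transcript of 684 nt, stood at 24.2 CPM in the CHI3L1 siRNA library and 60.6 CPM in the control siRNA library. After the correction its log2 fold was −0.30. The copper importer SLC31A1 had a log2 fold of 0.22. The copper pump ATP7A had one of 0.53, but its exons overlap those of the far more abundant PGK1, so its reads are uncertain.

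Against 7.73% higher and 13.4% lower over all tested genes, 2 of 5 tested genes for other zinc proteins were higher and 0 lower. Both encode zinc enzymes that interconvert carbon dioxide and bicarbonate, and the other 3 were within 1.5-fold. The list was chosen with earlier results of these data known. The count therefore rests on these 2 related genes and says nothing of zinc proteins as a group. CA9 stood at 121 CPM in the CHI3L1 siRNA library and 39.1 CPM in the control siRNA library (ratio 3.09, 2.83 to 3.38). CA12 stood at 527 CPM under CHI3L1 siRNA and 240 CPM under control siRNA (ratio 2.20, 2.12 to 2.28). The zinc transporter TMEM163 had 38 reads in the CHI3L1 siRNA library and 17 in the control siRNA library. Of 11 tested genes of the response to cadmium and oxidants, 1 was higher and 1 lower (median 0.13), near the shares over all tested genes. At 2-fold both counts were 0, and the higher call was also lost with 10 CPM added and by counting intervals. After the length and GC correction 2 were higher, SLC7A11 (log2 fold 0.85) and HMOX1 (0.63), and 1 lower. SLC7A11, the cystine importer, stood at 43.4 CPM in the CHI3L1 siRNA library and 26.1 CPM in the control siRNA library (ratio 1.67, 1.48 to 1.88). NQO1, a quinone reductase, stood at 174 CPM in the CHI3L1 siRNA library and 280 CPM in the control siRNA library (ratio 0.619, 0.592 to 0.648). HMOX1, the haem oxygenase gene, had a log2 fold of 0.50 as deposited, within 1.5-fold.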

How the data were processed

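The authors deposited 1 table of CPM values for both libraries, made from total RNA with an Illumina TruSeq kit per the labels' protocols. Per the submitters' processing notes, the tools included HISAT2, featureCounts, Trimmomatic, FastQC and MultiQC, and the build was GRCh38. The sources used here give no versions, no normalisation tool and no filter on low genes. Deposited values equalled whole reads, with 0.001 read added, multiplied by 1 constant for each library (100% within 0.01 read), so reads were recovered. Genes with fewer than 6 reads in both libraries do not occur.

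Lengths and coding sequences came from GENCODE release 29, and symbols from a name table matched by Ensembl identifier. Each coding gene had 1 transcript, picked by principal status, then support level, then length, which gave lengths for 85.5% of tested genes. The trend used splines with 5 degrees of freedom per term (patsy 1.0.2). Intervals used scipy 1.17.1. Steps were tested on simulated data. No count model was run. Members, lists and tests were chosen with earlier results of these data known. Genes named are the members, other metallothioneins with values, the 3 largest absolute folds of each list (mean of at least 1 CPM) and a few main transporters and regulators. Settings tried were other pseudocounts, scalings, filters and folds, and the correction.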

Additional observations from a re-analysis of the deposited data

How the results depend on the processing

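No paired analysis was possible because each group had 1 library, and leaving out a library leaves no comparison. At a pseudocount of 10 CPM, CHI3L1 had a log2 fold of −1.36, MT3 one of 0.40, and 0 members were higher. Centring on genes of at least 50 CPM gave 0 members higher and 1 lower, log2 folds of −0.64 for MT1E and −0.17 for MT2A, a ratio of metallothionein sums of 0.813, and 0 zinc importers higher and 2 lower. The length and GC correction gave 3 members higher, a metallothionein median log2 fold of 0.89 (lowest under any setting −0.07), log2 folds of 0.30 for MT1E, 1.01 for MT1F, 1.04 for MT1X, 0.76 for MT2A and 0.23 for MTF1, and 0 zinc importers higher. At 2-fold, 0 members were higher, and 0 zinc importers were higher and 0 lower. With counting intervals wholly beyond 1.5-fold, 0 members were higher. Over all genes, 1145 were higher and 1988 lower as deposited, 492 and 1011 at a pseudocount of 10 CPM, 715 and 2503 centred, 153 and 654 at 2-fold, 530 and 1244 by counting intervals, and 773 and 912 of 12664 coding genes after the correction. Under a pseudocount of 0.5 CPM, a trimmed mean of log ratios and other filters on the mean, the values and counts of members and zinc transporters stayed within counting error or 1.5 times of those reported. The trimmed mean left the scaling almost as deposited, with a median log2 fold of all tested genes of 0.0129 against 0.0138. Its likeness to the main setting is therefore no check of the scaling. MT1F and MT1G rest on 4 to 48 reads per library and have wide counting intervals that hold 1.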

Other observations

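Genes known to respond to glucocorticoids, which also induce metallothioneins, had a median log2 fold of 0.09 over 8 tested members. By 1.5-fold, 1 was higher (FKBP5) and 1 lower (DUSP1), against 7.73% higher and 13.4% lower over all tested genes. The FKBP5 call was lost with 10 CPM added, on centring, after the length and GC correction, at 2-fold and by counting intervals, and the DUSP1 call was lost under none of these. FKBP5, a chaperone partner of the receptor, stood at 66.8 CPM in the CHI3L1 siRNA library and 44.0 CPM in the control siRNA library. DUSP1, a phosphatase of MAP kinases that growth signals also induce, stood at 106 CPM in the CHI3L1 siRNA library and 223 CPM in the control siRNA library. The receptor gene NR3C1 had a log2 fold of 0.32 and ERRFI1, a feedback inhibitor of the EGF receptor, one of 0.47.

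Genes beside the metallothionein cluster stayed within 1.5-fold in 6 of 6 tested cases (median log2 fold 0.22). Over all tested genes 7.73% were higher and 13.4% lower, so this count does not set these neighbours apart. HERPUD1, of the degradation pathway of the endoplasmic reticulum, had a log2 fold of 0.50, OGFOD1 0.38 and NUDT21, a cleavage factor subunit, −0.35. Reads of OGFOD1 are uncertain, since its exons overlap those of BBS2 on the opposite strand. The same holds for SLC39A1 (CREB3L4), SLC39A4, SLC30A4, STEAP3 and CA9, whose exons overlap those of a gene on the opposite strand. Such overlaps also touch the markers KRT18 (KRT8), PAX8 and NKX2-1, and ATOX1 (G3BP1) and SLC31A2 (FKBP15). COX17 exons overlap those of POPDC2 on the same strand. The partners of STEAP3 and COX17 were scarce, with 24 and 8 reads in the CHI3L1 siRNA library and 16 and 3 in the control siRNA library.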
